A study of Mus musculus with 6 samples.

Results

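The cells described here were the G1/S cells of mouse esophageal organoids, those richest in transcripts of the Mcm helicase genes. They were chosen by their transcripts in 3 steps. Barcodes of all libraries with at least 500 detected genes were pooled, which left 25154 of 26808. Cells in the top 10% for the mean deposited value of the mitotic genes Top2a, Mki67, Birc5, Ube2c, Cenpf and Nusap1 were set apart as mitotic cells (2516). Of the rest, the 5% with the highest mean deposited value of Mcm2, Mcm3, Mcm4, Mcm5, Mcm6, Mcm7, Uhrf1, Hells, Ung and Lig1 were the members. These were 1132 G1/S cells, 4.5% of the cells kept, beside 21506 other non-mitotic cells. The levels of these 10 genes in the members were therefore set by the choice.

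The organoids were founded by esophageal basal cells of C57BL6 mice that had been sorted to be integrin-b1 positive, which marks basal cells, and to exclude cells that took up DAPI, a stain of dead cells. The sort then split them by Cyto-ID, a dye for autophagic vesicles, into Cyto-ID Low and Cyto-ID High founders. The labels name no other genetic change or agent. Both groups grew in Matrigel for 15 days from 500 to 1000 seeded cells per well, in a medium that held EGF, Noggin, R-spondin and the ROCK inhibitor Y27632, and droplet 3′ libraries were made from the dissociated organoids. Each group had 3 libraries, labelled F2, M3 and F6. The dye state was that of the founders, not of the cells sequenced. The labels do not say whether the libraries of a group came from separate animals, so the tests measure the spread between these libraries, which may in part be technical.

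Before a cell copies its DNA, the origin recognition complex, Cdc6 and Cdt1 load the ring made of Mcm2 to Mcm7 onto replication origins in G1. Cyclin-dependent kinases later turn this ring into the helicase that unwinds DNA at the fork. Transcription of these genes is driven at the end of G1 by E2F factors, which the RB proteins hold back until cyclin D and its kinases act. In the esophagus cell division belongs to the basal layer, and cells that leave it express Krt13 and Krt4 and later cornification genes.

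Because E2F factors are the known drivers of this gene set, the promoters of the chosen genes were read for E2F-type letters. Of the 10 genes of the choice, 9 matched a promoter in the RefSeq table of GRCm38.p6, each spanning 250 bases before to 50 after the start site; Mcm4 did not match. The motifs TTTCCCGC, TTTGGCGC, TTTCGCGC and TTTGCCGC were searched on both strands. At least 1 of them stood in 7 of the 9 promoters (77.8%), against 704 of all 27025 genes with a promoter (2.605%) and 5.39% of the 4306 matched genes that reached 20 CPM. The 77.8% is a property of the genes listed for the choice, and not a result of these cells. In 5 of the genes a match lay before the start site. Those 5 windows are shown 5′ to 3′ on the strand of the gene because they belong to the genes that chose the cells, with the matched letters in capitals:
Mcm5, chr8:75109310-75109413, plus strand: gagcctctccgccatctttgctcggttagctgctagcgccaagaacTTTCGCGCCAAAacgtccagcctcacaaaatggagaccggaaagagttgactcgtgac
Mcm6, chr1:128359706-128359861, minus strand: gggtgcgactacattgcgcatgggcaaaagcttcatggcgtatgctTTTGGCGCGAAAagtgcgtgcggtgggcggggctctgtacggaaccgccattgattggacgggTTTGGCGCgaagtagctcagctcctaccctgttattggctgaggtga
Mcm7, chr5:138171995-138172094, minus strand: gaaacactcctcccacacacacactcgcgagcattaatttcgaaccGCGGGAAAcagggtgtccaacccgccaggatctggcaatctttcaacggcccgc
Hells, chr19:38930882-38930981, plus strand: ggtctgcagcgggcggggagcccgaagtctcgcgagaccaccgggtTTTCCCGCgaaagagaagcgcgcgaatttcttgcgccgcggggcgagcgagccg
Uhrf1, chr17:56304082-56304181, plus strand: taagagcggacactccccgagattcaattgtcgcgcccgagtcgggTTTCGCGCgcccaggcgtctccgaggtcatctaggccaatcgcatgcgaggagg
In Mcm7 the capitals are a match on the opposite strand, and in Mcm5 and the first run of Mcm6 matches on the 2 strands overlap. The Mcm6 window holds 3 matches and the Mcm5 window 2. In Mcm3 and Lig1 the matches lay after the start site, and in Mcm2 and Ung these letters were not found in the window. None of the 6 promoters of the mitotic genes held a match. A match is a description of the letters and not a measured binding site.

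The libraries differed widely in depth, which bears on how the members were chosen. The median UMI number (unique molecular identifiers, 1 per captured transcript) of G1/S cells was 8117 in Low F2, 6962 in Low M3 and 2409 in Low F6. It was 11844 in High F2, 2502 in High M3 and 2119.5 in High F6. Members held about as many UMIs as the other non-mitotic cells of their library, with ratios of the medians from 0.894 to 1.24, whereas mitotic cells held 1.28 to 1.49 times as many. The median number of the 10 genes detected per member was 5, 5 and 3 in the Low libraries and 6.5, 3 and 3 in the High libraries. In the 3 shallow libraries, Low F6, High M3 and High F6, 28.4%, 31.2% and 42.3% of the members rested on only 2 detected genes, against 0.935 to 2.43% in the 3 deep ones. The cut lay at a score of 0.336761. The lowest member scored 0.33677 and the highest cell outside 0.336759, and the 100 cells on each side had a median of 2.5 and 2 detected genes. The median score was 0.507 among members and 0 outside, where 75.7% of cells had none of the 10 genes.

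In the shallow libraries the members resting on 2 genes also carried other replication transcripts. The summed level of 113 genes of DNA replication that the choice did not use was 3659, 4622 and 4467 CPM (counts scaled to the same total per cell) in the members with 2 detected genes of Low F6, High M3 and High F6 (33, 59 and 104 cells). In members with 3 or more genes it was 4055, 5624 and 5617 CPM in the same libraries, and in other non-mitotic cells it was 1364 to 1600 CPM over the 6 libraries. Other cells in which 2 or more of the 10 genes were detected, but which fell short of the cut, were at 2107 to 4029 CPM. In the deep libraries few members rested on 2 genes, with 3999 CPM in the 3 of Low F2, 1793 CPM in the 5 of Low M3 and 7293 CPM in the 2 of High F2. The border of the group is thus a range and not a step.

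The members were epithelial. The 4 lists of fibroblast, immune, endothelial and muscle, glial or pigment genes gave 245 of the members' 6974309 UMIs, and 18 of the 27 genes were at 0, among them Col1a1, Ptprc and Cdh5. Most of the 245 UMIs came from Acta2 (94), Egfl7 (88) and Cd68 (51). Mean Acta2 was 11.9 CPM in members against 6.97 CPM in other non-mitotic cells, and Egfl7 14.2 against 6.66 CPM. Cd68 was lower in members, at 9.72 against 16.0 CPM. The libraries shared 85 barcode sequences in all, between 0 and 10 per pair of libraries. No doublet caller was applied.

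The 6 Mcm subunits were the core of the choice and are given as a description. Mean Mcm3 was 127, 161 and 203 CPM in the G1/S cells of Low F2, M3 and F6, and 118, 223 and 113 CPM in those of High F2, M3 and F6. It was 4.90 ± 1.54 CPM (SD, n = 6 libraries) in other non-mitotic cells and 54.0 ± 15.4 CPM in mitotic cells. Mcm5 was 106, 141 and 160.1 CPM in the Low and 107, 174 and 141 CPM in the High libraries, against 3.98 ± 2.30 CPM in other cells. Every library of G1/S cells lay above every library of both other sets for these genes, and the Low and High libraries overlapped. Mcm6 was 124 to 201 CPM in G1/S cells, Mcm4 111 to 218, Mcm7 136 to 273 and Mcm2 65.4 to 87.4. The mean log2 ratio to other non-mitotic cells, taken as the ratio of CPM plus 10 in each library, ran from 2.72 for Mcm2 to 3.45 for Mcm3.

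The other 4 genes of the choice act beside the helicase. Uhrf1, which brings the maintenance methyltransferase to newly copied DNA, was 87.6, 79.0 and 103 CPM in the Low libraries and 96.0, 79.3 and 177 CPM in the High libraries. Hells, a chromatin remodeler, was 57.9 to 99.7 CPM in 5 libraries and 229 CPM in High F6. Lig1, the ligase that seals Okazaki fragments, was 116 to 262 CPM, against 14.2 ± 3.48 CPM in other cells. Ung, the glycosylase that removes uracil from DNA, was 40.1, 71.4 and 61.1 CPM in the Low libraries and 45.7, 87.9 and 40.2 CPM in the High libraries. It was 1.5 ± 0.353 CPM in other non-mitotic cells and 5.14 ± 0.932 CPM in mitotic cells, and its ratio of G1/S to mitotic cells, taken as CPM plus 10, was 4.34, the widest of the 10 genes.

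**Figure D1:**
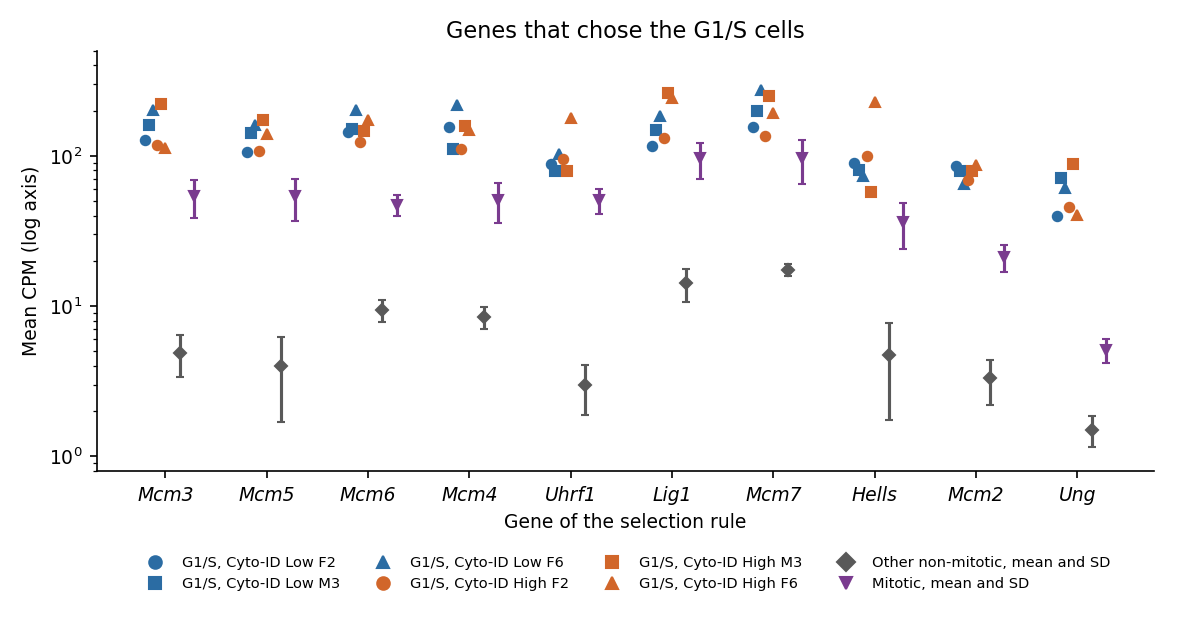
Mean CPM (log axis) of the 10 genes that chose the G1/S cells. Blue and orange points are the G1/S cells of the 6 libraries, and grey and purple symbols are the mean and SD over libraries of other non-mitotic and of mitotic cells; Mcm3 lies between 113 and 223 CPM in G1/S cells and at 4.90 CPM in other cells.

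Genes outside the choice were then read in the same cells. A gene was counted as higher or lower when the ratio of CPM plus 10 was at least 1.5 in the same direction in 6 of 6 libraries, among 5389 genes whose mean reached 20 CPM in G1/S or other non-mitotic cells. By this measure 177 genes (3.28% of those read) were higher in G1/S cells, the 10 chosen ones included, and 198 (3.67%) were lower. The choice made this contrast, so these shares and all values of it describe the cells and test nothing. A gene could reach 20 CPM through a single one of the sets compared, which favours genes that differ in the list counts and medians below. The fold values below are ratios of CPM plus 10, which understates the difference of low genes.

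Of 10 label markers outside the choice, 5 were higher by this measure, among them Pcna, Cdt1, Gins2 and Tipin. Pcna, the sliding clamp of the DNA polymerases, was 125, 82.6 and 60.2 CPM in the Low and 147, 74.7 and 178 CPM in the High libraries, against 26.1 ± 9.19 CPM in other cells (3.24-fold). Slbp, which binds histone messages, was 23.3 to 66.5 CPM against 22 ± 5.15 CPM and fell short in at least 1 library. The 4 other markers stayed under 20 CPM on average. Cdc6, a helicase loader, was 5.34 to 19.1 CPM against 0.691 ± 0.377, and Orc1, of the origin recognition complex, was 3.12 to 7.54 CPM against 0.377 ± 0.289. Ccne1 and Ccne2, the E-type cyclins of G1/S entry, were 7.27 to 19.8 and 3.58 to 24.0 CPM, with mean log2 ratios of 0.43 and 0.74. At such levels the added 10 CPM pulls ratios towards 0. Its part in the small ratios of Ccne1 and Ccne2 was not tested. DNA content was not analysed here.

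Among 27 genes that license and fire origins, 10 reached 20 CPM, 7 were higher and none lower, with a median log2 ratio of 1.65 beside 0.09 over all genes read. Some of them, such as Cdt1, Gins2 and Topbp1, reached 20 CPM through the members alone, which favours this count and median. Gmnn, the inhibitor of Cdt1 that stops an origin from being licensed again, was 120.4, 137 and 124 CPM in the Low and 142, 138 and 117 CPM in the High libraries, against 29.9 ± 4.62 CPM. Cdt1 itself was 22.5 to 49.0 CPM against 3.92 ± 1.06 CPM. Topbp1, which helps to fire origins, was 60.8 to 104 CPM against 14.8 ± 1.74 CPM, and Gins2, part of the active helicase, 37.7 to 77.8 CPM against 8.67 ± 1.80 CPM. The fork protection factors Timeless and Tipin were also higher, with log2 ratios of 1.56 and 1.91. Cdc45, which joins the Mcm ring on firing, was 7.66 to 17.3 CPM against 0.701 ± 0.487 CPM and did not reach the level asked for.

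The fork genes followed, with 12 of the 20 that reached 20 CPM higher and none lower (29 genes in the list, median log2 ratio 1.32). Pclaf, a partner of the Pcna clamp, had the largest ratio outside the choice, 2.53 ± 0.528 on the log2 scale (SD, n = 6). Its level differed between libraries, at 42.8, 89.2 and 34.2 CPM in the Low and 84.6, 155 and 262 CPM in the High libraries. Rpa2, a subunit of the protein that coats single strands, was 42.8 to 97.0 CPM against 8.25 ± 1.16 CPM. The primase subunit Prim1 (log2 ratio 1.81), the clamp loader subunit Rfc3 (1.77) and the polymerase subunit Pold1 (1.42) were higher as well. Pold2, Pold3, Pole3 and Pole4, further polymerase subunits, were not counted, with log2 ratios of 0.69 to 0.95.

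Of 15 nucleotide synthesis genes that reached 20 CPM (17 in the list), 11 were higher and none lower, with a median log2 ratio of 1.13. Dut, which removes dUTP from the nucleotide pool, was 162, 178 and 130.1 CPM in the Low and 213, 235 and 271 CPM in the High libraries, against 34.6 ± 16.3 CPM (4.75-fold). The thymidine pathway genes Tk1 and Tyms had log2 ratios of 2.06 and 1.84, and Rrm1 and Rrm2, the subunits of ribonucleotide reductase, 1.39 and 1.71. Dut and Ung keep uracil out of DNA at different steps, one in the pool and one in the strand. Dut was above the other cells in all 6 libraries. Ung was too, but it is a gene of the choice, which set its level. None of the 16 promoters matched for this list held an E2F-type motif.

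Genes that rebuild chromatin behind the fork came next, 9 higher and none lower of 13 (14 in the list, median log2 ratio 1.07). Nasp, a chaperone of histones, was 158, 133 and 148 CPM in the Low and 173, 97.5 and 169 CPM in the High libraries, against 27.5 ± 4.48 CPM. The chromatin assembly subunits Chaf1a and Chaf1b had log2 ratios of 1.87 and 1.86, and Dnmt1, the maintenance methyltransferase, 1.80. Of 26 repair and checkpoint genes only 7 reached 20 CPM, and 4 of these were higher, among them Usp1, a deubiquitinase of the repair pathway for crosslinks (39.5 to 81.8 CPM against 14.1 ± 1.69 CPM).

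Upstream, the E2F and RB list was mixed. Of its 32 genes 14 reached 20 CPM, 2 were higher and 2 lower, with a median log2 ratio of 0.63. E2f1, an activating E2F factor, was 33.8, 55.5 and 44.6 CPM in the Low and 36.4, 87.4 and 35.6 CPM in the High libraries, against 4.73 ± 1.08 CPM in other and 17.6 ± 7.84 CPM in mitotic cells. It was 3.84-fold higher than in other cells, and Cdk4, the kinase of cyclin D, was 1.87-fold higher. Ccnd1, a cyclin D gene, was 313 to 881 CPM against 269 ± 68.9 CPM and was not counted. The 2 lower genes were CDK inhibitors. Cdkn1a, which encodes p21, was 83.5, 68.5 and 96.1 CPM in the Low and 89.8, 84.2 and 109.8 CPM in the High libraries, against 234 ± 37.4 CPM (2.46-fold lower). Cdkn2b was 27.6 to 61.8 CPM against 126 ± 42.1 CPM (2.65-fold lower). For Cdkn1a all 6 libraries of G1/S cells lay below all 6 of other cells, which spanned 167 to 266 CPM.

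Of 66 histone genes 8 reached 20 CPM, of which 1 was higher, 2 were lower and 5 were not counted. The linker histone Hist1h1b was 110.2, 79.6 and 166 CPM in the Low and 93.3, 254 and 182 CPM in the High libraries, against 22.1 ± 8.06 CPM, and was the one counted as higher. Hist1h1c, also a linker histone, and Hist1h2bc were lower, by 3.06-fold and 3.84-fold. Most histone messages of dividing cells lack a poly(A) tail and are poorly caught by 3′ libraries, and near-identical copies may share reads, so their levels are uncertain.

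The promoter letters were read for these genes as well. Outside the choice, 135 of the 166 higher genes matched a promoter (the genes of the mitotic score left out too), and 28 of these held a motif (20.7%). Of the 143 matched lower genes 2 did (1.40%), and of the genes in neither set 4.85% did. By list, 9 of 21 promoters of origin genes held a motif, 8 of 24 of fork genes, 3 of 14 of chromatin genes and 8 of 24 of the E2F and RB list. Repair and checkpoint genes had 4 of 19 and nucleotide genes 0 of 16. Lists of other processes had matches too, with 3 of 13 for ribosome biogenesis, 2 of 19 for autophagy and 1 of 8 for basal genes. Mitosis genes outside the choice had 3 of 32 and suprabasal genes 0 of 15. These are shares of letters, given as a description.

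**Figure D2:**
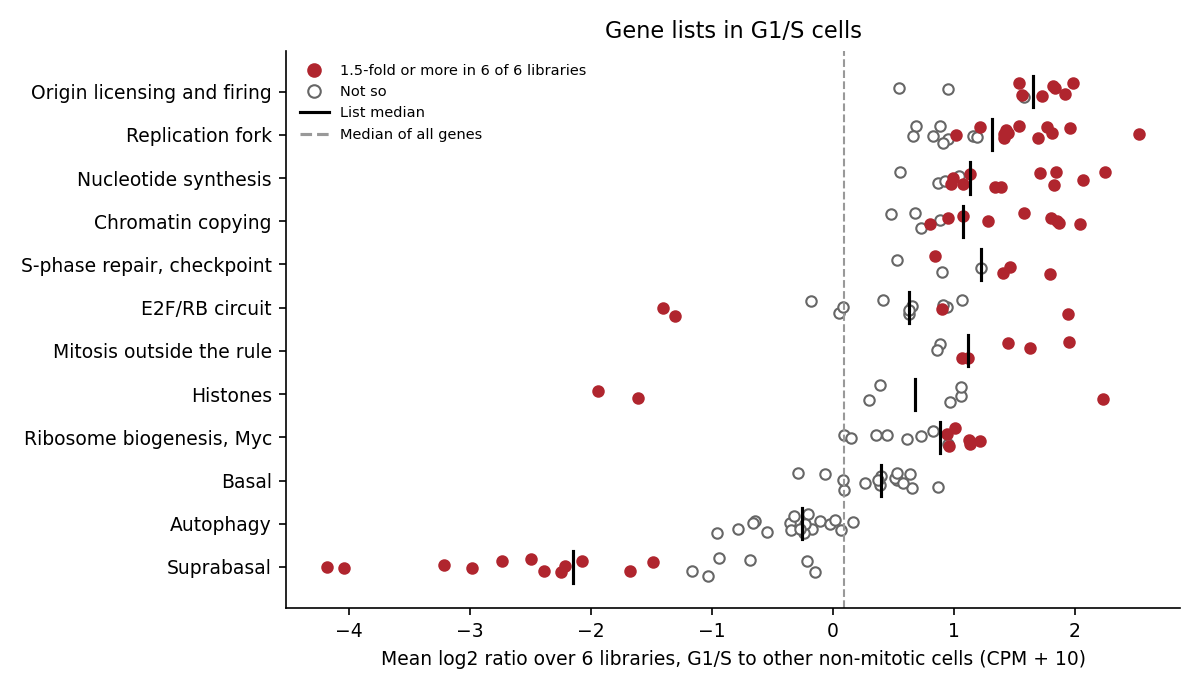
Mean log2 ratio over 6 libraries of G1/S to other non-mitotic cells (CPM plus 10), 1 point per gene with at least 20 CPM, by list; filled points passed 1.5-fold in 6 of 6 libraries and bars are list medians. The replication lists lie right of the dashed median of all genes (0.09), and the suprabasal list lies left (median -2.15). None of the 18 autophagy genes is filled, beside 3.28% higher and 3.67% lower over all genes.

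Beside replication, the members differed in layer. Of 18 suprabasal genes with at least 20 CPM, 12 were lower and none higher, with a median log2 ratio of -2.15. Krt13, the keratin of cells leaving the basal layer, was 941, 1598 and 671 CPM in the Low and 565, 1240.0 and 443 CPM in the High libraries, against 4976 ± 1808 CPM (5.63-fold lower). Krt4, its partner keratin, was 9.26-fold lower. The lowest ratios of all were those of Mal at 18.6-fold and Psca at 18.1-fold, both genes of upper layers, followed by AA467197, Sprr2d, Sprr2f and Sprr1a at 16.3-fold to 16.9-fold. None of the 15 basal genes was counted in either direction, with a median of 0.40, and Krt14 and Krt5, the basal keratins, had log2 ratios of 0.09 and 0.27. With 3.28% higher and 3.67% lower over all genes read, few of 15 genes would be counted, so this count says little.

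The members were mostly Krt13-low. Krt13 was below its library's median in 77.6, 81.1 and 85.3% of the members of Low F2, M3 and F6 and in 68.2, 85.2 and 72.8% of those of High F2, M3 and F6, against 44.5 to 47.2% of other cells. The contrast was therefore repeated among such Krt13-low cells on both sides, a choice made after seeing the data. Of 5379 genes read, 90 (1.67%) were then higher and 31 (0.576%) lower. The 10 chosen genes were higher, as the choice fixes, and so were 7 of 12 origin genes, 11 of 20 fork genes, 7 of 14 nucleotide genes and 5 of 13 chromatin genes. The genes that reached 20 CPM differ in part from those of the full contrast. Of the 121 genes counted here, 113 were also among the 375 of the full contrast. The log2 ratio of Pcna was 1.46, of E2f1 1.71 and of Pclaf 2.29, beside 1.70, 1.94 and 2.53 in the full contrast.

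The medians of most lists were nearer 0 among Krt13-low cells. They were 1.48 for origin, 1.15 for fork, 0.97 for nucleotide and 0.74 for chromatin genes, beside 1.65, 1.32, 1.13 and 1.07 in the full contrast, where 7 of 10, 12 of 20, 11 of 15 and 9 of 13 genes were higher. The selection itself set Krt13 low on both sides, so its log2 ratio of -0.14, and that of its partner Krt4 of -0.33, say nothing further. The basal median was -0.0048, and 3 of 13 suprabasal genes were lower, namely Psca, Sprr2f and Aldh1a3. Cdkn1a had a ratio of -0.87 and Cdkn2b of -0.65, and neither was counted. In the full contrast 6 of 14 ribosome biogenesis genes were higher, among them Nop56 (log2 ratio 1.21) and Ncl (0.96 ± 0.030), both of which act in making ribosomes, while among Krt13-low cells none was, with a median of 0.57 beside 0.88. Myc itself had a log2 ratio of 0.10.

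Autophagy genes were read because the founders had been sorted by a dye for autophagic vesicles. None of the 18 with at least 20 CPM was counted in either direction, beside 3.28% higher and 3.67% lower over all genes read. At such shares few of 18 genes would be counted, so this says little about the list. Its median log2 ratio was -0.26, beside 0.09 over all genes read. Sqstm1, an autophagy receptor, was 43.5 to 63.9 CPM in G1/S against 119 ± 33.9 CPM in other cells, and Map1lc3b, which coats the vesicles, 213 to 417 CPM against 523 ± 146 CPM.

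The mitotic cells served as a second comparison. They too were chosen by transcripts, so this is again a description. Their name rests on the 6 genes that chose them, and their phase of the cycle was not measured. Of 5491 genes with at least 20 CPM in either set, 9 (0.164%) were higher in G1/S cells and 106 (1.93%) lower. The 9 higher genes were Mcm2, Mcm3, Mcm4, Mcm5, Mcm6, Mcm7, Hells and Ung, all of the choice, and Cdca7. Uhrf1 and Lig1, also of the choice, did not pass in every library. Cdca7, which works with Hells in chromatin remodeling, was 33.4, 33.2 and 30.9 CPM in the Low and 36.3, 19.1 and 26.8 CPM in the High libraries. It was 10.1 ± 3.43 CPM in mitotic and 4.47 ± 1.29 CPM in other non-mitotic cells. It was the one gene outside the choice to pass, and its 6 libraries all lay above those of mitotic cells, which reached 13.6 CPM.

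The rest of the replication genes did not pass this measure. Against mitotic cells the median log2 ratio was 0.16 for origin genes, 0.06 for fork genes, 0.23 for nucleotide genes and 0.07 for chromatin genes, beside -0.06 over all genes, and none of these genes was counted. Pcna, for example, was 90.3 ± 33.9 CPM in mitotic cells. Dut was 188 ± 39.1 CPM in mitotic and 198 ± 51.6 CPM in G1/S cells. E2f1 was 2.11-fold higher in G1/S cells on average and did not pass in every library.

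Mitosis genes differed between the 2 sets. Of 38 mitosis genes outside the choice, 35 were lower in G1/S than in mitotic cells, with a median log2 ratio of -1.84, beside 1.93% lower over all genes. The mitotic cells had been picked for transcripts of this kind and the members stripped of them, so this outcome was largely set by the choice. All 38 reached 20 CPM in this comparison, against 7 in that with other non-mitotic cells. Ccnb1, the cyclin of mitotic entry, was 3.1 to 16.6 CPM in G1/S and 114 ± 19.3 CPM in mitotic cells, and Plk1, a mitotic kinase, 0.957 to 4.98 CPM against 44.4 ± 6.72 CPM. Against the other non-mitotic cells, however, 5 of the 7 with at least 20 CPM were higher. Genes such as Cdk1 reached that level through the members alone, which favours this count. Cdk1, the mitotic kinase, was 25.3, 23.8 and 16.0 CPM in the Low and 35.1, 33.5 and 48.5 CPM in the High libraries, against 2.72 ± 1.51 CPM, and the condensin genes Smc2 and Smc4 had log2 ratios of 1.95 and 1.45. Hist1h1b, high in members against other cells, was 4.54-fold lower than in mitotic cells. Of 17 histone genes with at least 20 CPM in either set, 11 were lower in members and none higher (median log2 ratio -1.25). The summed level of the histone list was 337 to 1138 CPM in G1/S and 1437 to 3711 CPM in mitotic cells. S-phase transcripts were thus not confined to the members. Pclaf was 111 ± 85.6 CPM in G1/S and 239 ± 66.0 CPM in mitotic cells, which did not pass in every library.

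The choice had removed the cells richest in the 6 mitotic genes, so a low mitotic score in members was set by it. The median score was 0 in 5 libraries and 0.0821 in High F2, the deepest. Between 43.0 and 83.6% of members had none of the 6 genes, against 79.7 to 96.2% of other non-mitotic cells, and in each library the share was lower in members. Against mitotic cells no suprabasal and no basal gene was counted, with median log2 ratios of -0.35 and 0.31. Smaller differences of layer were seen all the same. In all 6 libraries Krt13-low cells were a larger share of the members (68.2 to 85.3%) than of mitotic cells (65.7 to 79.1%), and the median summed level of basal genes was higher in members (12041 to 27919 CPM) than in mitotic cells (10242 to 20671 CPM). That of suprabasal genes went both ways. It was higher in members in Low M3 (1668 against 1541 CPM) and High F2 (2091 against 1939 CPM), and lower in the remaining libraries.

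**Figure D3:**
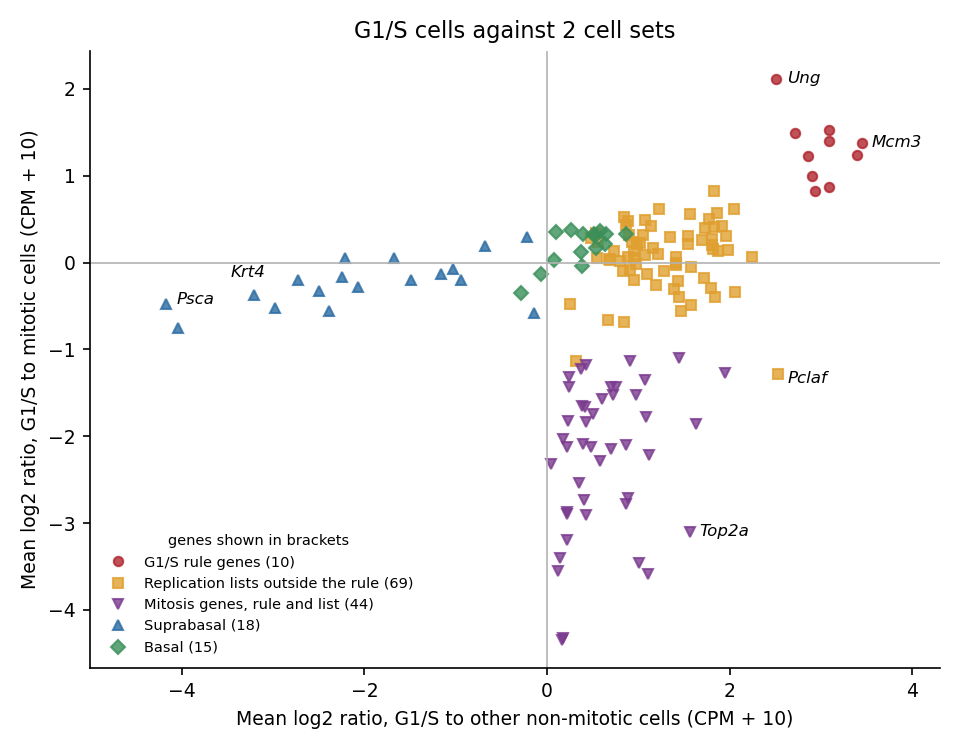
Each point is a gene, placed by its mean log2 ratio (CPM plus 10) of G1/S to other non-mitotic cells (x axis) and of G1/S to mitotic cells (y axis). The 10 chosen genes lie high on both axes, and replication genes outside the choice are high on the x axis alone. Mitosis genes lie low on the y axis, which the choice of both sets favours.

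The share of G1/S cells was then compared between founders. It was 4.54% in Low F2, 3.67% in Low M3 and 4.35% in Low F6, and 4.91%, 4.22% and 5.49% in High F2, M3 and F6. The Wilson 95% intervals, which cover counting error only, spanned 3.21 to 5.27% over the Low libraries and 3.67 to 6.19% over the High libraries. Group means were 4.19 ± 0.458% and 4.87 ± 0.636% (SD, n = 3), a difference of 0.686 percentage points. The High library was higher in 3 of 3 pairs with the same label, but the groups overlapped, and the two-sided exact permutation test gave p = 0.3, where the smallest p that 3 against 3 allows is 0.1. Members could come only from non-mitotic cells. As a share of these they were 4.48 ± 0.426% in Low and 5.57 ± 0.825% in High libraries. That difference was 1.08 points, and the groups overlapped here too (exact permutation p = 0.2).

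Mitotic cells gave a wider gap by the same counting. Their share was 7.22, 9.26 and 3.75% in the Low and 12.2, 10.8 and 13.96% in the High libraries, and the groups did not overlap (exact permutation p = 0.1, the smallest possible). Set against each other, there were 62.9, 39.6 and 116 G1/S cells per 100 mitotic cells in the Low libraries and 40.4, 39.0 and 39.3 in the High libraries, a ratio that was even among High libraries and uneven among Low ones (exact permutation p = 0.2).

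The share also depended on the filter. With at least 1000 detected genes in place of 500, the share was 4.24, 3.48 and 4.04% in the Low and 4.84, 5.33 and 8.42% in the High libraries, a difference of 2.28 points with no overlap (exact permutation p = 0.1). That filter kept 93.9, 93.6 and 58.5% of the cells of Low F2, M3 and F6 and 95.8, 44.4 and 22.3% of those of High F2, M3 and F6. The share was higher under that filter in High M3 and High F6 and lower in the other 4 libraries, Low F6 included. After every cell was thinned to 1000 UMIs, which left out 10 to 115 shallower cells per library, the share was 8.46 ± 1.43% and 9.26 ± 1.10% (exact permutation p = 0.5), with ties at the cut letting in more than 5% of cells. The High library was then higher in 2 of 3 pairs with the same label, with 8.26% in High F2 against 8.39% in Low F2. Without High F6 the difference was 0.379 points and without High M3 1.01 points.

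**Figure D4:**
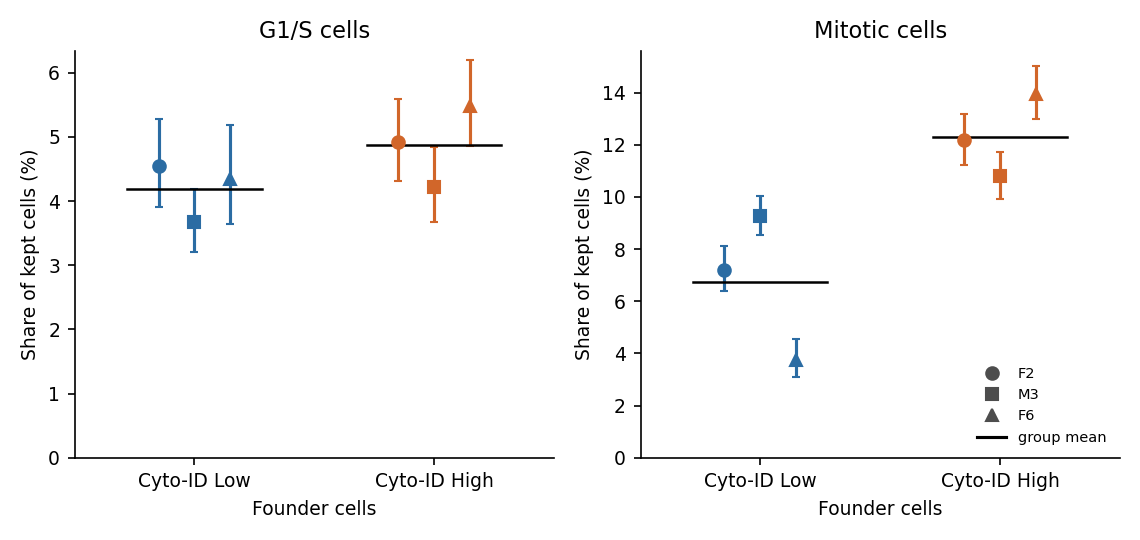
Share of kept cells (%) that were G1/S cells (left) and mitotic cells (right) in each library, with Wilson 95% intervals and group means as lines. The G1/S shares overlap between founders (3.67 to 4.54% and 4.22 to 5.49%), and the mitotic shares do not.

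Within the G1/S cells, expression was compared between Cyto-ID High and Cyto-ID Low founders, a contrast the choice did not use. Mean CPM per library was tested with limma over 7370 genes, with Benjamini-Hochberg adjustment over all of them. No gene passed an adjusted p of 0.05 (0% of those tested), while 470 had an unadjusted p under 0.05, 232 of them higher in High (3.15%) and 238 lower (3.23%). Leaving out High M3 gave 21 calls, 11 higher and 10 lower, and leaving out Low F2 gave 4.

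The 3 genes with the smallest p in each direction, among those with a mean of 20 CPM or more, were followed by library. Mt4, a metallothionein of squamous epithelium, was 25.1, 1.39 and 0 CPM in the Low and 583, 260 and 323 CPM in the High libraries, a log2 difference of 6.69 ± 0.868 (SE) with adjusted p = 0.0532 in limma. Krtdap, a secreted protein of differentiating keratinocytes, was 114, 29.3 and 13.9 CPM in the Low and 836, 278 and 878 CPM in the High libraries (log2 difference 4.17, SE 0.635, limma adjusted p = 0.0809). Capns2, a calpain subunit, was 4.15, 5.02 and 1.29 CPM in the Low and 53.9, 52.7 and 21.7 CPM in the High libraries (log2 difference 3.46, SE 0.521, limma adjusted p = 0.0809). In each of these the 3 High libraries lay above the 3 Low ones, which picking by the smallest p favours, and the adjusted p stayed above the threshold. Among Krt13-low members, a choice made after seeing the data, Mt4 had a limma adjusted p of 0.0003 and Krtdap one of 0.0411, both under the threshold, and Capns2 had 0.286.

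On the other side, Arg1, the arginase gene, was 496, 284 and 451 CPM in the Low and 129, 149.9 and 97.9 CPM in the High libraries (log2 difference -1.5, limma adjusted p = 0.187). Krt20, a keratin of the suprabasal list, was 85.3, 46.9 and 51.9 CPM in the Low and 8.36, 19.8 and 13.2 CPM in the High libraries (log2 difference -1.92). Gm20186, a gene model with no name, was 81.3, 67.6 and 70.8 CPM in the Low and 27.5, 21.9 and 21.8 CPM in the High libraries (log2 difference -1.41). The groups did not overlap in any of the 3, which picking by the smallest p favours, and the limma adjusted p was 0.187 for each. Mt4, Krtdap, Capns2 and Arg1 belong to a list chosen on these samples, so their direction here is not independent evidence.

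The same genes were then read in the cells around the members. In the other non-mitotic cells the log2 differences were 6.33 for Mt4, 4.31 for Krtdap and 2.74 for Capns2, with limma adjusted p of 0.0330, 0.0102 and 0.00491. They were -0.94 for Arg1, -1.41 for Krt20 and -0.77 for Gm20186, nearer 0 than in G1/S cells, with limma adjusted p of 0.863, 0.481 and 0.863. In mitotic cells these 3 differences were -1.57, -1.76 and -1.50 (limma adjusted p = 0.217 each), and whether they differ from those of the members was not tested. A limma fit of the High minus Low difference in G1/S cells minus that in other cells called 0 of 7788 genes (0%), with 353 at an unadjusted p under 0.05, and gave differences of 0.36 for Mt4, -0.15 for Krtdap, 0.72 for Capns2, -0.56 for Arg1, -0.52 for Krt20 and -0.63 for Gm20186, none past the threshold.

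The smallest p of that fit belonged to Wfdc18, Slpi and Prxl2a, with limma adjusted p = 0.0814 each. Wfdc18, of the whey acidic protein family, was 450.4, 83.1 and 469.6 CPM in Low and 117, 22.3 and 118 CPM in High G1/S cells, while in other cells it was 433, 158 and 574 and 421, 80.4 and 412 CPM. Slpi, a secreted antiprotease, was 120.7, 54.0 and 61.0 CPM and 59.7, 122.6 and 98.9 CPM in G1/S cells, while in other cells it was 105, 74.1 and 76.9 and 160.5, 448 and 295 CPM. For Prxl2a, a peroxiredoxin-like gene, the values were 139, 93.4 and 121 and 169, 162 and 148 CPM in G1/S cells, and 448, 211 and 318 and 258, 164 and 111 CPM in other cells. The High minus Low gap of Prxl2a thus pointed up in G1/S cells and down in other non-mitotic cells, and the test of that difference did not pass. In mitotic cells Prxl2a was at 122 ± 23.9 CPM in Low and 139 ± 20.1 CPM in High libraries (SD, n = 3), and Wfdc18 at 273 ± 111 and 111 ± 48.7 CPM, the same directions as in the members.

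Replication genes did not pass between founders either. The counts at an unadjusted p under 0.05 were 1 of 19 origin genes, 2 of 26 fork genes, 3 of 16 nucleotide genes, 1 of 14 chromatin genes and 4 of 13 repair genes, all higher in High, with median log2 differences of 0.40, 0.48, 0.30, 0.18 and 0.63 beside 0.02 over all genes. As shares these were 5.26%, 7.69%, 18.8%, 7.14% and 30.8% of the genes of each list, beside 3.15% higher over all genes tested. Mitosis genes outside the choice had 5 of 15 (33.3%), all higher, and a median of 0.80. None of these genes passed after adjustment. Pclaf had the largest difference among fork genes that reached this unadjusted level, 1.74 with a limma adjusted p of 0.477, and its groups overlapped. The share of mitotic cells was also higher in the High libraries, as given above, and its part in these differences was not tested.

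The layer genes went both ways. Of 14 suprabasal genes tested, 3 were higher (Krtdap, Sbsn and Sprr1b) and 5 lower (Krt12, Krt20, Il33, Aldh1a3 and Sprr2f) at an unadjusted p under 0.05, with a median log2 difference of -0.37. These are 21.4% and 35.7% of the list, beside 3.15% higher and 3.23% lower over all genes tested. Of 15 basal genes 1 was higher (6.67%) and 2 were lower (13.3%). None of 22 autophagy genes had an unadjusted p under 0.05, and their median difference was -0.06, which does not show that the groups are alike.

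**Figure D5:**
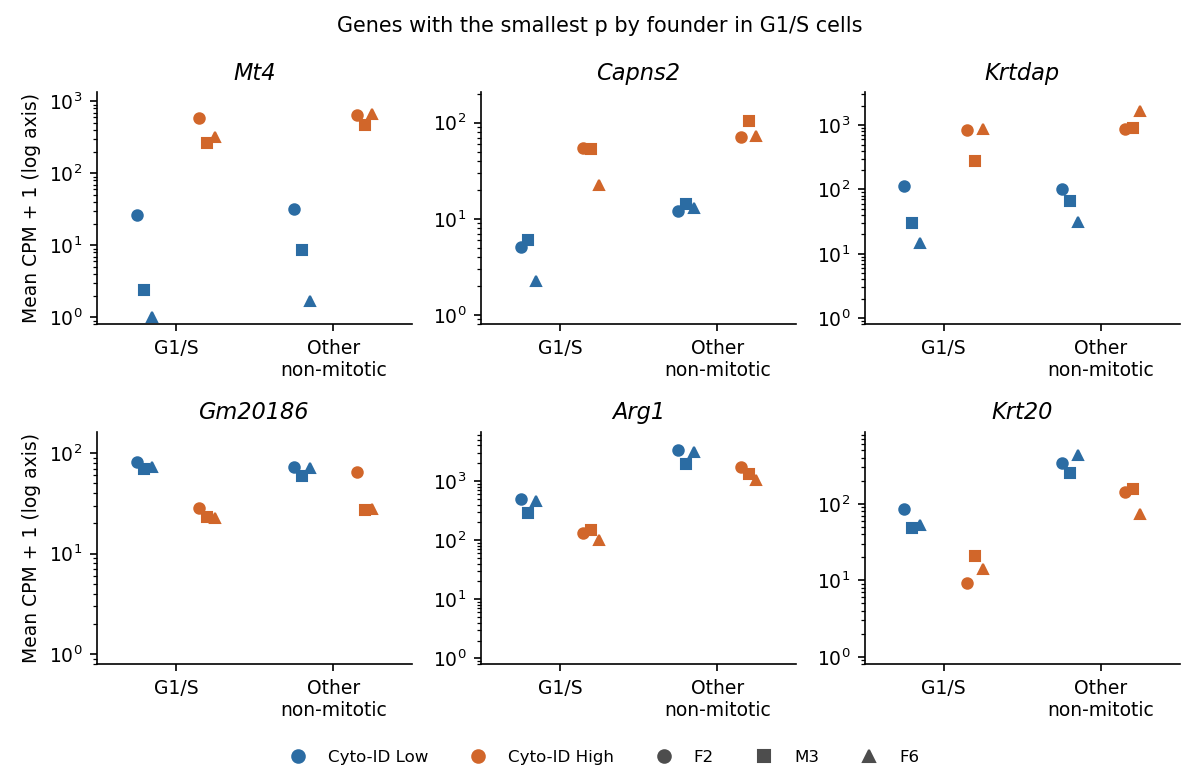
Mean CPM plus 1 (log axis) of the genes with the 3 smallest p in each direction between founders, among those with a mean of 20 CPM or more, in G1/S and in other non-mitotic cells of each library (blue Cyto-ID Low, orange Cyto-ID High, shapes are replicate labels). In G1/S cells the High libraries of Mt4 span 260 to 583 CPM and the Low libraries 0 to 25.1 CPM, and the same order is seen in the other cells.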

How the data were processed

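The authors deposited 1 table per library for 32285 genes. The deposited values are natural logs made by the authors, ln(1 + 10000 x UMI count / cell total), per the values of the files, since the labels do not state the unit. Cell Ranger 6.0.0 and Seurat 4 with mm10 or GRCm38 are named, per the submitters' processing notes; parameters are not given in the sources used here. UMIs were recovered from the logs, and CPM is 100 x (exp(value) - 1), averaged over the cells of a library. A total of 1654 barcodes under 500 genes were dropped; no doublet caller was run, and the 5% of cells with most UMIs were removed in an alternative.

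Group tests used limma 3.58.1 in R 4.3.3 on log2(CPM + 1) after TMM scaling (30% of ratios and 5% of levels trimmed), for genes with 10 CPM in at least 3 libraries, with a mean-variance trend and Benjamini-Hochberg adjustment; such log2 differences are too small for low genes. The script was tested on simulated data. Single values used two-sided exact permutation tests. Other scripts ran in Python 3.11.15 (numpy 2.4.6, scipy 1.17.1, pandas 2.3.3). Promoters came from RefSeq (GRCm38.p6).

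The members and gene lists were chosen with earlier results of these data known. Beyond list genes, the text names genes from the 20 largest and 10 smallest ratios to other cells, and per direction the 3 smallest founder p where fewer than 3 genes were called (3 in all for the difference between cell sets). The genes higher than in mitotic cells were named after their values were seen. A few list genes are counted but not reported here by name. Alternatives varied filters, cuts, thinning, scaling, pseudocount, and libraries.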

Additional observations from a re-analysis of the deposited data

How the results depend on the processing

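The founder difference in the mean share of G1/S cells was positive under each alternative run, but after thinning the High library was higher in only 2 of 3 same-label pairs. The exact permutation p was at least 0.1, a bound fixed in advance, since 3 against 3 libraries allow no smaller p. With at least 1000 detected genes the groups did not overlap, as given above. No named gene of the ratios or founder fits reversed in the alternatives computed for it. Still, 111 of 640 log2 ratios moved by more than their spread, and 15 of 57 values of the difference between cell sets passed the threshold. Small values near 0 could turn, such as the basal median among Krt13-low cells. The share difference ranged from 0.379 to 1.01 points when 1 library was left out. The count of genes that differed between founders within G1/S cells, 0 as reported, was 1 with at most 5% mitochondrial UMIs, 2 with 1000 detected genes, 10 with the upper cut at the 90th percentile, 2 at the 98th, 4 after thinning to 1000 UMIs, 9 with a pseudocount of 10 CPM, 5 with a filter at 1 CPM, 2 with summed UMIs and 3 in Krt13-low members (chosen after seeing the data). It was 0 to 21 when 1 library was left out. For the founder genes named by their p, 28 of 117 values under alternatives passed the threshold that the reported ones missed. The difference between cell sets, 0 as reported, was 3 with the 90th percentile, 1 with cuts within each library, 3 with a pseudocount of 10 CPM, 3 with a filter at 1 CPM, 2 without TMM factors, and 0 to 1 when 1 library was left out. With the replicate label as a block these counts were 6 and 5, and the limma adjusted p was 0.0248 for Mt4, 0.0383 for Capns2 and Wfdc18 and 0.0462 for Krtdap. The labels do not state a pairing. Deviations of same-labelled G1/S cells had correlations of 0.33 (F2), 0.36 (M3) and 0.075 (F6), while of the 6 pairs with different labels Low F2 and High F6 correlated at 0.198 and the other 5 at -0.363 to -0.022. Deviations from a group mean sum to 0 over its libraries. Values for different labels are therefore tied to those for the same label and are not separate evidence on pairing. The 375 genes that differed from other cells became 112 after thinning (55 higher, 57 lower), 161 at 2-fold, a stricter measure, and 121 among Krt13-low cells (chosen after seeing the data). They became 389 to 450 when 1 library was left out, where only the remaining libraries had to pass, a looser measure than 6 of 6. Against mitotic cells, another comparison, 115 genes differed. Cuts within each library used the smallest positive value where the mitotic cut was 0. Apart from the stricter and looser measures, the cause of these shifts was not tested. In the 3 shallow libraries depth limits low genes such as Orc1 and the choice of members.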
